A study of Mus musculus with 18 samples.

Results

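The 9 mouse Trim genes described here were *Trim30a*, *Trim30b*, *Trim30c*, *Trim30d*, *Trim12a*, *Trim12c*, *Trim34a*, *Trim21* and *Trim68*, chosen by symbol and all found in both count tables, among 21959 listed genes for mouse embryonic fibroblasts (MEFs) and 51826 for liver. They were chosen because *Trim30a* and *Trim30d* had higher read counts in RepB-/- than in wild-type (WT) samples in both tissues, so the differences between genotypes given below for the 9 genes are descriptions and carry no p-value. RepB-/- mice lack repeat B, a cytosine-rich stretch of the noncoding RNA *Xist*, which coats the inactive X chromosome in female cells. The deletion was made with CRISPR/Cas9 and bred to homozygosity, and WT animals are the controls.

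Polyadenylated RNA was sequenced from 3 RepB-/- and 3 WT MEF samples and from 3 RepB-/- and 3 WT livers, 12 of the 18 samples of the series. The 6 brain samples were not analysed here. The labels call the MEFs a primary cell line but give their source as tail. The paper's methods name primary MEFs for RNA-seq, whereas its results also speak of fibroblasts from tail and ear. The name MEFs is kept here. The labels give no strain, sex, age, litter or culture for any sample. The p-values below therefore measure only the spread between these libraries, which may be technical. The paper names purchased female ICR mice but does not tie them to these samples. Any part that a difference of strain between the genotypes had in the values was not tested. *Xist* itself was not analysed here, and its level could not check the genotype labels.

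Proteins of the TRIM family carry a RING finger, a B-box and a coiled coil, and many act as ubiquitin ligases. Several are induced by interferons and take part in innate immunity, among them primate TRIM5, which blocks incoming retroviruses. In the mouse, the *Trim12* and *Trim30* genes lie in the stretch of chromosome 7 that corresponds to the human *TRIM5* locus, where they arose by repeated duplication. TRIM30A lowers Toll-like receptor signalling by promoting the degradation of the adaptors TAB2 and TAB3, and TRIM21 is a cytosolic antibody receptor.

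The 9 genes lie on chromosome 7, between 102557921 and 104507849 on GRCm38, the build of the liver table, and between 102207128 and 104157056 on GRCm39, the build of the MEF table. The name cluster fits 7 of them. *Trim34a*, *Trim12a*, *Trim12c*, *Trim30b*, *Trim30c*, *Trim30a* and *Trim30d* lie within 0.263 Mb, whereas *Trim21* and *Trim68* stand 1.56 Mb away. *Trim34a* is on the plus strand and the other 8 genes are on the minus strand. The coding sequences of *Trim30a* and *Trim30d* (GENCODE M21) were 90.2% identical over their aligned bases, and those of *Trim12a* and *Trim12c* were 96.4% identical. *Trim12a* has the shorter coding sequence of that pair, 891 bases against 1491.

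Such likeness bears on how far reads can be assigned to 1 gene. Of all stretches of 100 bases in the annotated transcripts of *Trim34a*, 39.0% also occurred in transcripts of other genes, mainly its copy *Trim34b*. The share found in any other gene was 8.05% for *Trim12c*, 4.57% for *Trim30d*, 4.41% for *Trim30a*, 3.29% for *Trim12a* and 0 for the other 4 genes. The counts of *Trim34a* are therefore uncertain, and the others share fewer such stretches. This measure covers only exact matches between annotated transcripts. Reads that differ from the annotated sequence, or come from copies absent from it, could be lost or assigned to another gene. How far this affected the counts of *Trim30a*, *Trim30d*, *Trim12a*, *Trim12c* or the other members was not tested. *Trim12a* and *Trim34a* also overlap antisense genes (*Gm15133* and *Gm47248*), and *Trim30a* overlaps the snRNA gene *Gm25405* on the opposite strand. Whether counting used strand is not given in the sources used here. On the same strand, *Trim30d* overlaps the processed pseudogene *Gm16464*, *Trim12c* the snRNA gene *Gm27995* and *Trim68* the gene *Gm45527*. The effect of these overlaps on the counts was not tested.

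The promoters of the 4 genes on which the comparison turns are shown because each carries the core letters of an interferon response element near its start. They are RefSeq sequences of GRCm38.p6, from 250 bases before to 50 bases after the transcription start, written 5′ to 3′ on the minus strand. Capitals mark the core of the interferon-stimulated response element, searched as GAAANNGAAA on both strands and found here as its reverse complement TTTCNNTTTC. The windows are chr7:104465144-104465443 for *Trim30a*, chr7:104507800-104508099 for *Trim30d*, chr7:104315446-104315745 for *Trim12a* and chr7:104353300-104353599 for *Trim12c*.
Trim30a: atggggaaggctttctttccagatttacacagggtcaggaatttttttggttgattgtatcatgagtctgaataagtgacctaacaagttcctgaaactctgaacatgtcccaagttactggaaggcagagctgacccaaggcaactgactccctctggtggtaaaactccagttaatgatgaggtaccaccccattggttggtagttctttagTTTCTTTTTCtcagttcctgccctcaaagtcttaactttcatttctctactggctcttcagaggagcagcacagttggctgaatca
Trim30d: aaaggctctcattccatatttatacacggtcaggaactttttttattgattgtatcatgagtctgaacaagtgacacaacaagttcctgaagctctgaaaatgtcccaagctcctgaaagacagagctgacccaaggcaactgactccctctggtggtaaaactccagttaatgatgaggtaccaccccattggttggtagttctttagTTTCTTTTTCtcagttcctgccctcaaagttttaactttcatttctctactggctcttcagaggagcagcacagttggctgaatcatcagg
Trim12a: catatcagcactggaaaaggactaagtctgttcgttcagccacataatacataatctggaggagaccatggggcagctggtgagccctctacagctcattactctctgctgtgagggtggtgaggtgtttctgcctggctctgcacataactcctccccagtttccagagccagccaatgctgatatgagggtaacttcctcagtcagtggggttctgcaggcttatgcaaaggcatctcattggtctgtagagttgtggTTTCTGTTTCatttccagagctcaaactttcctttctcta
Trim12c: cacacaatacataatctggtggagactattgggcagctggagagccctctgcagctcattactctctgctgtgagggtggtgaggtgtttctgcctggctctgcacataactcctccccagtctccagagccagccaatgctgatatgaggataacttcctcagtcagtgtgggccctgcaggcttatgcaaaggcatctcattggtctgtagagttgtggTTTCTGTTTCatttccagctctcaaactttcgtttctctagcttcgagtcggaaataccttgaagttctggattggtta

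In *Trim30a*, *Trim30d* and *Trim12c* the core ended 26, 31 and 19 bases before the annotated start, and in *Trim12a* it lay at bases 11 to 20 after it. RefSeq gives *Trim30a* another start, with the window chr7:104446076-104446375 and the core at bases 3 to 12 after that start. That window is not shown and is not counted below. The windows of *Trim30a* and *Trim30d* carried the same core and were identical over 92.3% of the window. Those of *Trim12a* and *Trim12c* also shared their core and were identical over 82.3%. The core was present in 6 of the 9 promoters, with *Trim34a* and *Trim21* as the others, compared with 3.44% of 32851 RefSeq promoters of the same length. *Trim30b*, *Trim30c* and *Trim68* had no match in the window. The interferon gamma element TTCNNNGAA was present in 1 of the 9, *Trim30c*, and in 8.30% of all promoters. A match describes letters in the window and does not show that the site was used in these samples.

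Sequencing depth ranged from 20005541 to 20587556 counts in the RepB-/- MEF libraries and from 11540344 to 16347806 in WT, and from 37682201 to 51542709 in liver. CPM below are counts scaled to a common library size by TMM normalization, which allows for differences in composition between libraries. In MEFs, fibroblast markers were abundant, with a summed level of 9222 to 16645 CPM that was higher in every RepB-/- library. Of the 7 markers, 4 were higher in RepB-/- without overlap, *Thy1* was lower, and *Col1a2* and *Lum* overlapped. In liver, 6 hepatocyte markers summed to between 108344 and 190931 CPM and overlapped between genotypes. Replicate 1 of both genotypes stood apart among the livers, with fibroblast marker sums of 1314 and 860 CPM against 242 to 440 in the other 4. After the genotype means were removed, the replicate 1 livers deviated together (r = 0.710), and replicates 2 and 3 did so across numbers (r = 0.404 and 0.406) as much as within them (r = 0.361 and 0.365). RepB-/- liver replicate 2 held 86.2 CPM of 4 Y-linked genes, which were at most 0.0292 CPM in any other liver. It therefore held male cells, and the paper writes males with the deletion as RepB-/Y. The group name RepB-/- is kept for this liver below. The members that were separate between genotypes are given below with and without these libraries. The fold changes, sums, ratios and TPM levels are over all libraries unless a library is said to be left out.

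*Trim30a* was the member with the widest gap between genotypes in MEFs, and *Trim30d* followed it. *Trim30a* had 107, 93 and 97 reads in the 3 RepB-/- MEF libraries and 6, 14 and 19 in WT. Scaled for depth, these are 5.45, 4.80 and 4.92 CPM against 0.481, 0.866 and 1.13 CPM. Every RepB-/- library lay far above every WT library, and the mean level was 6.13 times as high (log2 fold change 2.57 ± 0.29 SE, n = 3 against 3). *Trim30d*, its closest copy in these sequences, had 43, 37 and 25 reads in RepB-/- against 5, 12 and 3 in WT. Its 3 RepB-/- libraries were again above all WT libraries, with 2.19, 1.91 and 1.27 CPM against 0.401, 0.742 and 0.178 CPM (log2 fold change 2.01 ± 0.48 SE). These counts are small, and leaving out WT replicate 2 moved the difference for *Trim30d* to 2.67.

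Of the 6 members that passed the filter on low counts in MEFs, 2 were higher in RepB-/- with no overlap between the libraries, *Trim30a* and *Trim30d*, and 0 were lower. Among all 13306 genes tested in MEFs, 26.4% were higher and 25.8% lower without overlap, and nothing is read from the members' count, since it was used to choose them. A log2 fold change at least as large in size as that of *Trim30d* was found for 3.04% of the tested genes.

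**Figure D1:**
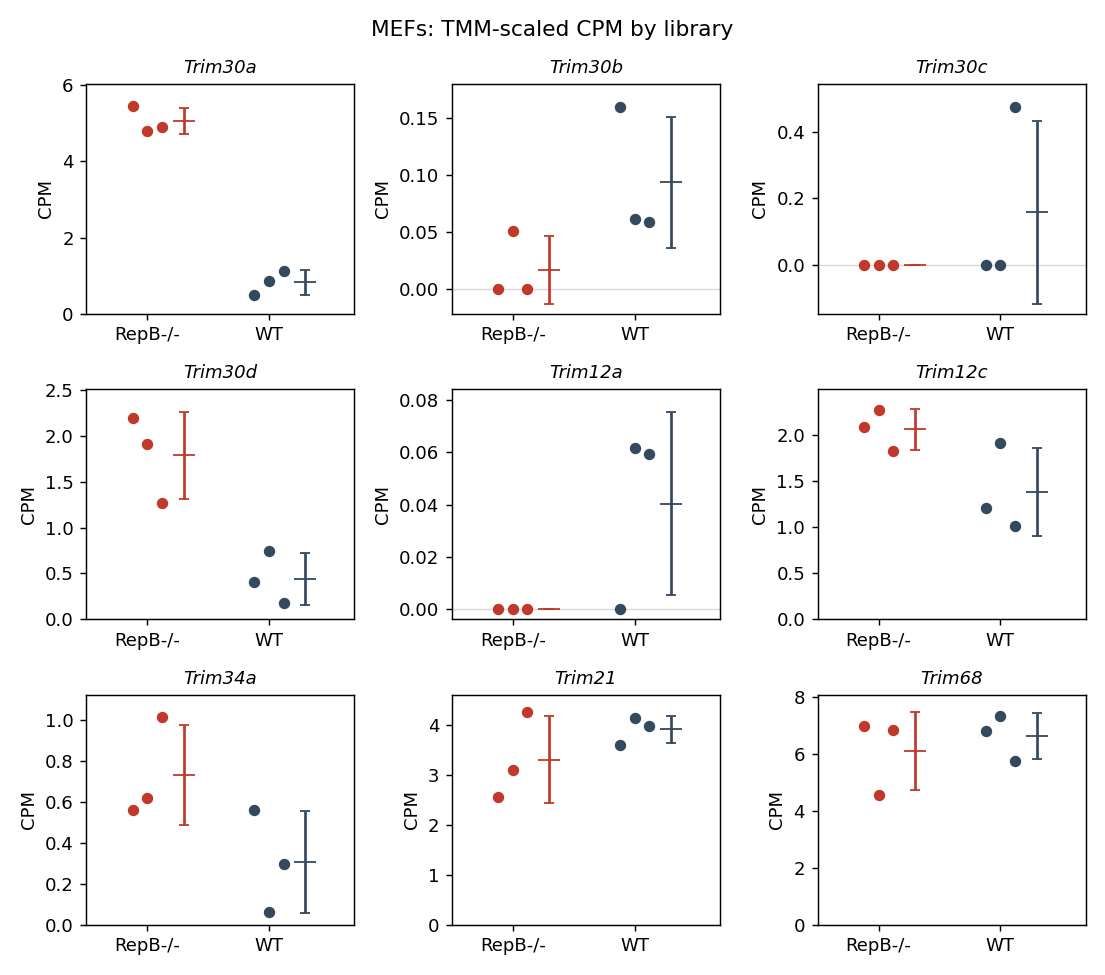
TMM-scaled CPM of the 9 genes in each of the 3 RepB-/- and 3 WT MEF libraries (points), with the mean and SD beside them, each panel on its own linear axis. *Trim30a* and *Trim30d* show separate groups, with RepB-/- at 4.80 to 5.45 and 1.27 to 2.19 CPM, while the groups of *Trim12c*, *Trim34a*, *Trim21* and *Trim68* overlap.

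The other 4 members that passed the filter gave overlapping groups in MEFs. *Trim12c*, whose protein has been linked to TRAF6 in interferon induction, had 41, 44 and 36 reads in RepB-/- and 15, 31 and 17 in WT (log2 fold change 0.57 ± 0.33 SE). *Trim34a*, an interferon-induced gene, had 11, 12 and 20 reads against 7, 1 and 5 (1.31 ± 0.60 SE). With so few reads the estimate for *Trim34a* moved between 0.81 without WT replicate 2 and 1.97 without WT replicate 1. When any RepB-/- library was left out, *Trim34a* did not pass the filter, so this range covers WT libraries only.

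*Trim21* and *Trim68*, the members outside the dense part of the locus, overlapped between the genotypes as well. *Trim21* had 50, 60 and 84 reads in RepB-/- and 45, 67 and 67 in WT, a log2 fold change of -0.25 ± 0.24 SE. *Trim68* had 137, 88 and 135 reads against 85, 119 and 97, a log2 fold change of -0.11 ± 0.20 SE that became 0.065 without RepB-/- replicate 2. *Trim30b*, *Trim30c* and *Trim12a* did not pass the filter and were barely detected, with at most 2, 8 and 1 reads in any MEF library. At this depth no difference between genotypes was detectable for these 3 genes.

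Per length, the deletion samples differed from WT in the order of the genes. On the FPKM scale (read counts divided by the length of the gene and by the total of the library), WT MEFs held *Trim68* first at 1.99 ± 0.242 (SD), then *Trim21* at 1.09 ± 0.0380, *Trim12c* at 0.381 ± 0.122 and *Trim30a* at 0.207 ± 0.0782. The ranges of *Trim68*, *Trim21* and *Trim12c* did not touch, whereas *Trim12c*, *Trim30a* and the genes below each overlapped the next in order. In RepB-/- MEFs *Trim30a* stood second at 1.18 ± 0.0765 FPKM, below *Trim68* at 1.69 ± 0.370 with overlapping ranges, and all its libraries were above those of *Trim21* at 0.854 ± 0.224.

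In liver the members moved in both directions. *Trim30a* and *Trim30d* were higher in RepB-/-, and *Trim12a*, *Trim12c* and *Trim21* were lower, each with no overlap between the libraries in CPM. These are 2 genes higher and 3 lower of the 9, all of which passed the filter, beside 3.38% higher and 4.66% lower of the 16080 genes tested in liver. This count, too, comes from the contrast that chose the genes.

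*Trim30d* had 250, 163 and 377 reads in the RepB-/- livers and 32, 61 and 48 in WT. The corresponding levels were 4.94, 3.24 and 11.0 CPM against 0.714, 1.58 and 1.01 CPM, so that the lowest RepB-/- liver was above the highest WT liver. The ratio of the means was 5.80 (log2 fold change 2.53 ± 0.58 SE), and RepB-/- replicate 3 supplied much of it, with a log2 fold change of 1.90 without that library. A change of this size or larger in either direction was found for 0.864% of the tested genes. *Trim30a* had 451, 448 and 454 reads against 295, 257 and 301, or 8.91, 8.90 and 13.2 CPM against 6.58, 6.64 and 6.36 CPM. Its libraries were separate as well, but the difference was 0.66 ± 0.25 SE on the log2 scale, smaller than the value of 2.57 in MEFs. The tissues were not tested against each other for these genes.

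On the deposited TPM scale the gap of *Trim30a* in liver was narrower, at 4.20, 3.96 and 4.07 in RepB-/- against 3.47, 3.41 and 2.85 in WT, and still without overlap. The difference between the scales is greatest for RepB-/- replicate 3, whose TMM-scaled size was 34286521 counts against a total of 43284198.

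*Trim12a* was counted in every WT liver and in no RepB-/- liver. It had 19, 47 and 30 reads in WT and 0, 0 and 0 in RepB-/-. Set against a floor of 3 counts in each RepB-/- library, its mean level was at least 11.0-fold lower in RepB-/- than in WT. Of 51826 listed genes in liver, 4 had 0 counts in all RepB-/- livers and at least 10 in each WT liver, and 3 had the reverse. With a limit of 5 counts these were 14 and 4 genes. In MEFs *Trim12a* was at or under the floor in both genotypes, so the same comparison cannot be made there.

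*Trim12c* had 131, 119 and 44 reads in the RepB-/- livers and 121, 378 and 442 in WT. In CPM the groups came close but did not overlap, at 2.59, 2.36 and 1.28 against 2.70, 9.76 and 9.34, and WT replicate 1 was the low library of its group (log2 fold change -1.80 ± 0.57 SE, and -2.19 without that library). On the TPM scale the groups of *Trim12c* overlapped, at 1.80, 1.46 and 0.395 against 1.54, 4.68 and 4.62, so that its separation depends on the scaling. *Trim21* had 3.87, 4.85 and 3.76 CPM in RepB-/- against 5.87, 9.38 and 9.17 CPM in WT (log2 fold change -0.97 ± 0.30 SE), again with WT replicate 1 lowest of its group, and -1.15 without it.

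**Figure D2:**
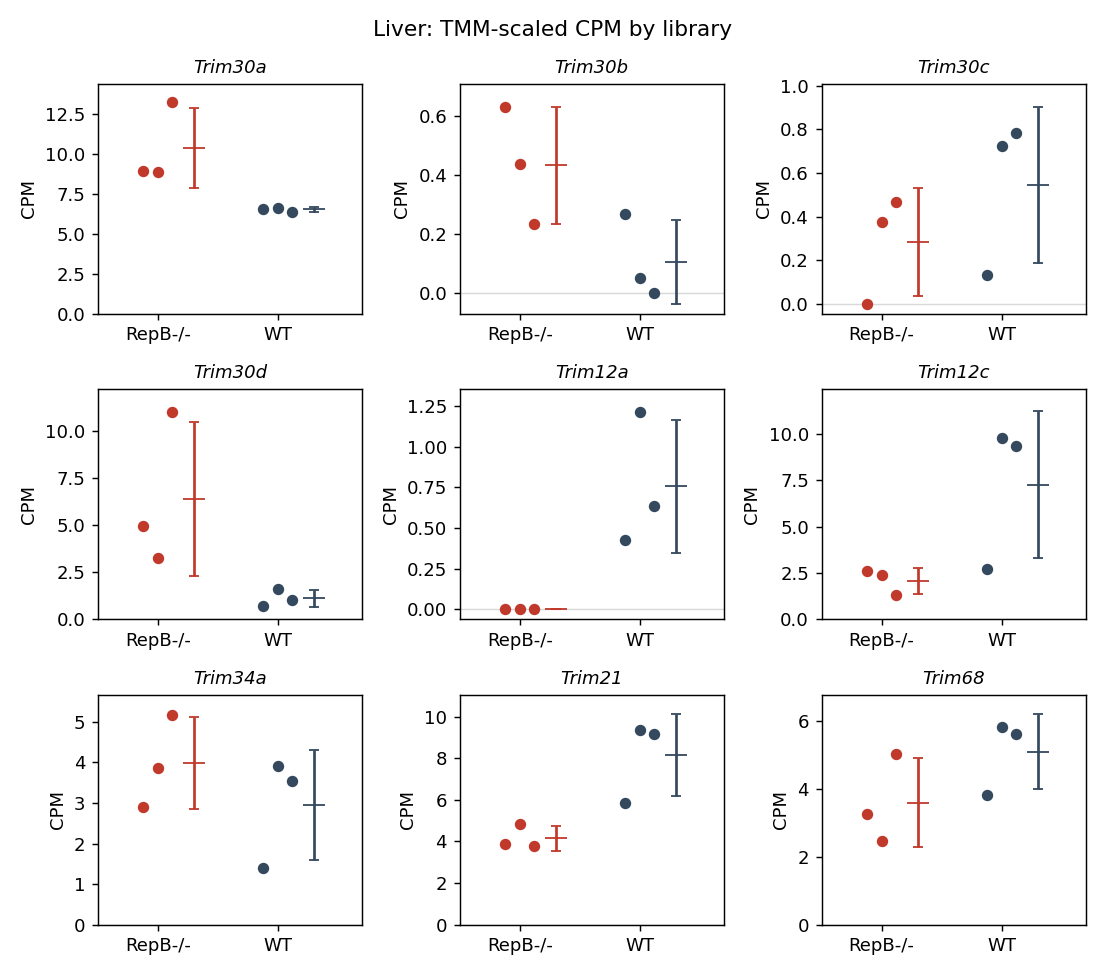
TMM-scaled CPM of the 9 genes in each of the 3 RepB-/- and 3 WT liver libraries (points), with the mean and SD beside them, each panel on its own linear axis. *Trim30a* and *Trim30d* lie higher in RepB-/- and *Trim12a*, *Trim12c* and *Trim21* lower, with *Trim12a* at 0 in all 3 RepB-/- livers.

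In CPM the remaining 4 members overlapped between the livers of the 2 genotypes. *Trim30b*, a short relative with 609 coding bases, had 32, 22 and 8 reads in RepB-/- and 12, 2 and 0 in WT (log2 fold change 2.01 ± 1.13 SE, and 4.03 without WT replicate 1). *Trim30c* had 0, 19 and 16 reads against 6, 28 and 37 (-0.97 ± 1.24 SE, and -0.37 without RepB-/- replicate 1). For both, replicate 1 of one genotype lay within the range of the other genotype. *Trim34a* had 147, 195 and 177 reads against 63, 151 and 168 (0.43 ± 0.48 SE), and without WT replicate 1 the difference was 0.095. *Trim68*, which encodes a ubiquitin ligase, had 165, 124 and 172 reads against 171, 225 and 266 (-0.51 ± 0.38 SE). On the TPM scale *Trim68* was separate and lower, at 2.60, 1.85 and 2.66 in RepB-/- against 3.74, 4.78 and 4.80 in WT. Thus 2 members were higher and 3 lower on either scale, with *Trim68* in place of *Trim12c* among the lower genes in TPM.

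The same 5 genes were separate when RepB-/- replicate 2, the liver with Y-linked counts, was left out, beside 7.52% of tested genes higher and 8.23% lower. Without replicate 1 of both genotypes, 8 of the 9 genes were separate with 2 libraries a genotype. *Trim30b* joined the higher genes, making 3, and *Trim30c* and *Trim68* joined the lower genes, making 5. With so few libraries, 21.2% of tested genes were higher and 21.9% lower without overlap.

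The total over the 9 genes overlapped between the livers of the genotypes, while its make-up did not look alike. Summed over the 9 genes, the RepB-/- livers held 27.1, 26.5 and 40.2 CPM and the WT livers 21.9, 39.1 and 36.5 CPM, with overlap. The 4 *Trim30* genes together held 17.5 ± 6.53 CPM (SD) in RepB-/- and 8.28 ± 0.656 in WT. *Trim12a* and *Trim12c* together held 2.08 ± 0.697 CPM in RepB-/- and 8.02 ± 4.27 in WT.

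A ratio of 2 genes within a library does not depend on how libraries are scaled. The ratio of *Trim30d* to *Trim12c* reads was 1.91, 1.37 and 8.57 in the RepB-/- livers and 0.264, 0.161 and 0.109 in WT. *Trim30d* outnumbered *Trim12c* in every RepB-/- liver and fell short of it in every WT liver. *Trim30d* was chosen for its higher counts in RepB-/-, and *Trim12c* was already lower in these livers. The separation of their ratio in liver therefore follows from the values above and is only a description. In MEFs the ratio was 1.05, 0.841 and 0.694 in RepB-/- against 0.333, 0.387 and 0.176 in WT, also without overlap. The ratio of *Trim30d* to *Trim30a* reads was separate in liver but overlapped in MEFs. There it was 0.402, 0.398 and 0.258 in RepB-/- against 0.833, 0.857 and 0.158 in WT. In MEFs the sum of the *Trim30* genes was 6.87 ± 0.736 CPM in RepB-/- and 1.52 ± 0.421 in WT, and that of the *Trim12* genes was 2.06 ± 0.226 and 1.42 ± 0.491 CPM.

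**Figure D3:**
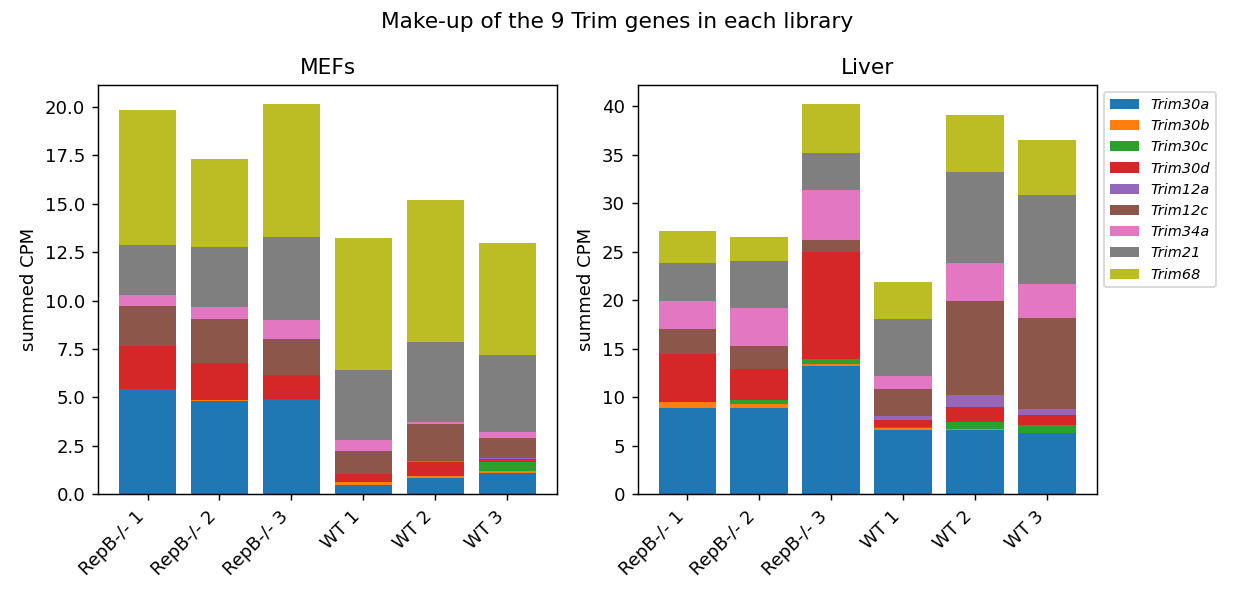
Stacked TMM-scaled CPM of the 9 genes in each library, MEFs on the left and liver on the right, with 1 colour for each gene. *Trim30a* and *Trim30d* take up more of the bar in RepB-/- libraries of both tissues, and *Trim12c* and *Trim21* more of it in WT livers, while the liver totals overlap at 26.5 to 40.2 CPM in RepB-/- and 21.9 to 39.1 CPM in WT.

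On the TPM scale, which is per length, *Trim21* was first in WT livers at 6.19 ± 0.759 (SD), above *Trim68* at 4.44 ± 0.607, *Trim12c* at 3.61 ± 1.79 and *Trim30a* at 3.24 ± 0.342. *Trim30d* was seventh of the 9 at 0.617 ± 0.221 TPM. In RepB-/- livers *Trim30a* was first at 4.08 ± 0.119 TPM and *Trim30d* second at 3.58 ± 2.12, with overlapping ranges. *Trim21* followed at 2.72 ± 0.620, also within the range of *Trim30d*, and *Trim12c* stood at 1.22 ± 0.732 TPM, below all libraries of the 5 genes above it. *Trim12a* was last, listed at 0.

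Markers of immune cells were read beside these values, since *Trim30* genes are known from macrophages and lymphocytes, and in bulk samples fewer cells of a type and less RNA per cell cannot be told apart. In MEFs, 10 macrophage and Kupffer cell markers summed to 25.3 to 30.4 CPM in RepB-/- and 21.6 to 29.7 CPM in WT, which overlap. Among them *Adgre1*, the F4/80 antigen, was higher in RepB-/-, at 2.84 to 3.62 CPM against 0.481 to 1.30 CPM, as was the receptor gene *Csf1r*, at 14.2 to 17.4 CPM against 9.39 to 11.2 CPM. *Cd68* was lower in RepB-/- and the other 7 overlapped, among them *Clec4f*, which defines Kupffer cells and was at 0 in all MEF libraries. Lymphocyte markers in MEFs summed to 0.930 to 1.88 CPM in RepB-/- and 3.03 to 4.01 CPM in WT. Of these 9 markers, 4 were lower in RepB-/- and 5 overlapped, among them *Ptprc*. *Cd79a* had 5, 0 and 5 reads in RepB-/- against 21, 22 and 30 in WT. The low sums of hepatocyte markers (0 to 0.203 against 0.557 to 1.52 CPM) and erythroid markers (0.517 to 1.11 against 1.55 to 3.05 CPM) were also lower in RepB-/- MEFs. The part that macrophage content had in *Trim30a* and *Trim30d* of MEFs was not tested. In liver, the sums of the macrophage, lymphocyte and endothelial markers overlapped between genotypes, and 0 of these 24 markers had separate groups.

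Genes that respond to the same signals were examined next, to see whether other interferon-stimulated genes moved with *Trim30a*. In MEFs, 31 of 36 listed interferon-stimulated genes could be tested, and by edgeR's quasi-likelihood test with an adjusted p under 0.05, 6 rose and 1 fell. Over all tested genes 39.1% were called, 19.4% higher and 19.7% lower in RepB-/-, so that the share of the list that rose, 19.4%, equalled that of all genes. The median log2 fold change of the list was 0.22, against 0.0003 over all genes. *Samd9l*, an antiviral gene, rose by 1.30 ± 0.13 SE (adjusted p = 1.06e-05) and *Xaf1* by 0.99 ± 0.21 (adjusted p = 2.13e-03). The 2′-5′ oligoadenylate synthetase gene *Oas1a* rose by 1.02 ± 0.34 (adjusted p = 0.0303, and 0.0640 with DESeq2, which did not call it). *Oasl1*, which represses translation of *Irf7*, fell by 3.27 ± 0.56 (adjusted p = 5.31e-04). *Ifit1* and *Ifit2*, common reporters of interferon signalling, had log2 fold changes of 0.05 ± 0.23 and 0.01 ± 0.10 and did not pass the test.

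Among the receptors and signalling genes upstream, 31 of 32 were tested in MEFs, 11 rose (35.5%, against 19.4% of all genes) and 4 fell (12.9%, against 19.7%), with a median of 0.10. The receptors *Tlr3* and *Tlr4* rose by 1.11 ± 0.22 (adjusted p = 1.48e-03) and 0.58 ± 0.10 (adjusted p = 6.25e-04), and the interferon receptor kinase gene *Jak1* by 0.85 ± 0.07 (adjusted p = 2.53e-06). The interferon gamma receptor subunit gene *Ifngr2* fell by 0.65 ± 0.08 (adjusted p = 6.85e-05), the ligase gene *Traf6* by 0.50 ± 0.12 (adjusted p = 5.18e-03) and the adaptor gene *Mavs* by 0.32 ± 0.08 (adjusted p = 4.26e-03). *Tab2*, whose protein TRIM30A targets, fell by 0.30 ± 0.08 (adjusted p = 0.0104). *Tab3*, *Sting1* and *Irf3* did not pass the test, with log2 fold changes of 0.14 ± 0.14, 0.10 ± 0.08 and -0.02 ± 0.09.

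In liver, 0 of 36 interferon-stimulated genes and 0 of 32 signalling genes passed edgeR's test, beside 0.0373% of all tested genes (0.00622% higher and 0.0311% lower in RepB-/-), and DESeq2 called 0 of either list too. At an unadjusted p under 0.05 there were 0 and 0 by edgeR and 0 and 2 by DESeq2. Over all tested genes there were 502 of 16080 by edgeR (3.12%) and 808 of 26998 by DESeq2. With the replicate number as a block 0.0498% of all genes were called, and with a term for replicate 1 against the others 0.056%, again with 0 in both lists. The spread within genotypes was wide in liver, with a coefficient of variation of 51.2% between replicates against 9.06% in MEFs, and small changes were not detectable at that spread. The medians were -0.09 for interferon-stimulated genes and 0.11 for signalling genes, against 0.01 over all genes. The lowest p-values belonged to *Ifi35* (log2 fold change -0.44 ± 0.24 SE), *Ifi44* (1.42 ± 0.86), the transcription factor gene *Irf1* (-0.96 ± 0.42) and *Tab2* (1.02 ± 0.48).

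**Figure D4:**
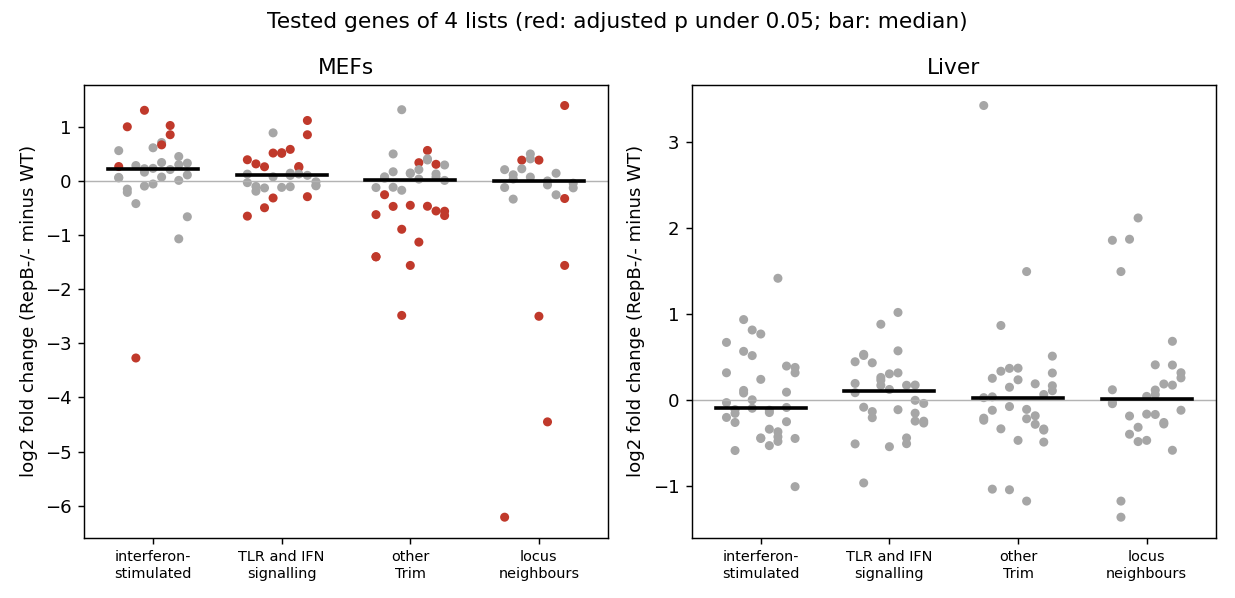
Log2 fold changes (RepB-/- minus WT) of the tested genes of 4 lists, MEFs on the left and liver on the right. Red points passed an adjusted p of 0.05 and bars are list medians, and no point is red in liver.

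Of 59 other Trim genes 36 were tested in MEFs, 3 rose (8.33%, against 19.4% of all genes) and 14 fell (38.9%, against 19.7%), with a median of 0.02 and 19 of the 36 above 0. The genes that rose were *Trim23* (0.56 ± 0.12 SE, adjusted p = 2.91e-03), *Trim37* (0.33 ± 0.10, adjusted p = 0.0209) and *Trim28* (0.30 ± 0.07, adjusted p = 4.75e-03), which encodes the heterochromatin corepressor KAP1. The 3 that fell most were *Trim17* (-2.49 ± 0.39, adjusted p = 3.02e-04), *Trim6* (-1.56 ± 0.41, adjusted p = 8.38e-03) and the muscle membrane repair gene *Trim72* (-1.41 ± 0.38, adjusted p = 9.76e-03). In liver, 33 of 60 were tested by edgeR and 0 passed by edgeR or DESeq2. At an unadjusted p under 0.05 there were 5 of 48 by DESeq2, beside 808 of 26998 over all genes. By edgeR there were 2 (6.06%, against 3.12% of all genes). The 2 were *Trim6* (1.49 ± 0.48) and *Trim2* (-1.03 ± 0.43).

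The same stretch of chromosome was followed out to 1 Mb on either side of the members. In MEFs, 183 other genes start there and 23 of them were tested, many of the rest being olfactory receptor genes with few or no reads. By edgeR 3 rose and 5 fell, or 13.0% and 21.7%, near the 19.4% and 19.7% of all genes. The homeobox gene *Phox2a* rose by 1.39 ± 0.38 SE (adjusted p = 0.0101), *Inppl1* by 0.38 ± 0.07 (adjusted p = 8.74e-04) and the caveolar gene *Cavin3* by 0.38 ± 0.10 (adjusted p = 9.01e-03). *Usp17le* had 0, 2 and 1 reads in RepB-/- and 94, 36 and 57 in WT, and its relative *Usp17la* had 3, 2 and 0 against 39, 19 and 31, so that both were at the floor of 3 counts in every RepB-/- library. These 2 deubiquitinase genes belong to a family of near-identical copies, among which reads cannot be assigned with certainty. *Art5* fell by 2.50 ± 0.65 (adjusted p = 7.64e-03), on 7 reads in all in RepB-/- and 32 in WT. In liver, 30 of 265 were tested by edgeR and 0 passed by edgeR or DESeq2. At an unadjusted p under 0.05 there were 2 by edgeR, *Olfr78* (2.12 ± 0.57) and *Trim6*. They were 6.67% of the tested neighbours, against 3.12% of all genes. By DESeq2 there were 7 of 66, beside 808 of 26998 over all genes.

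**Figure D5:**
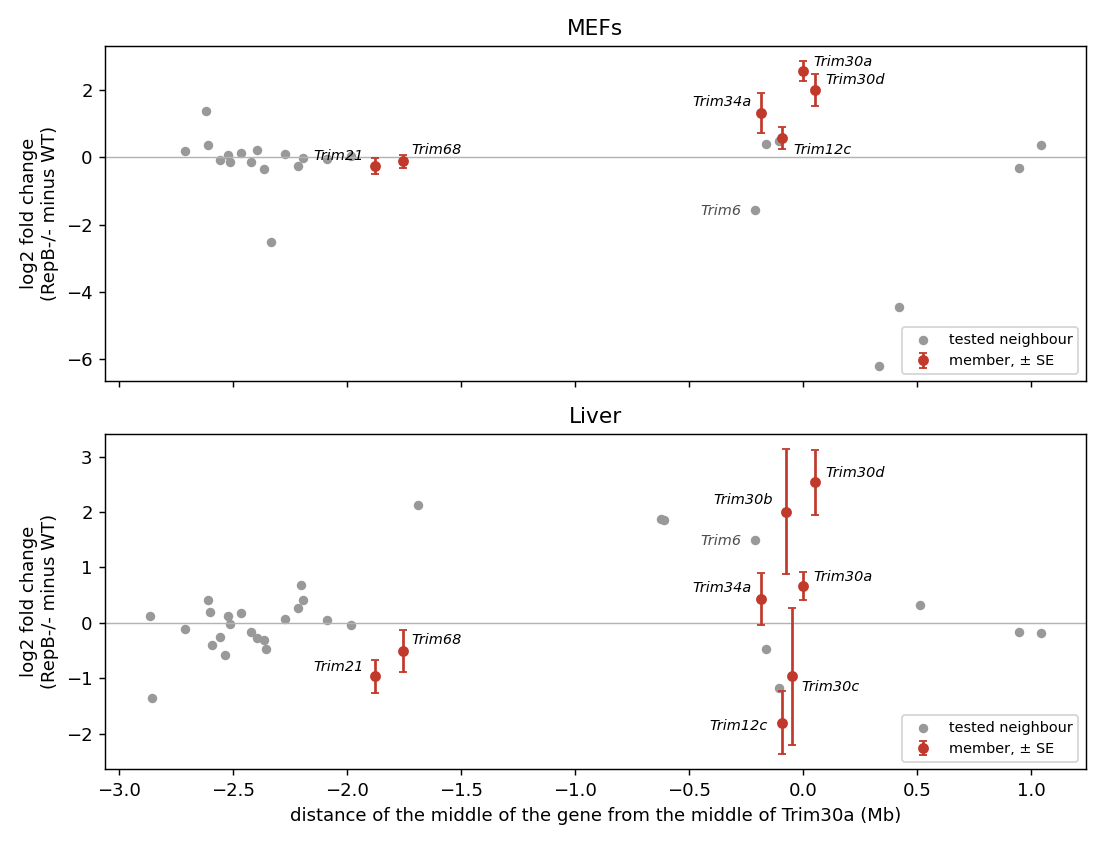
Log2 fold change (RepB-/- minus WT) of the tested members (red, ± SE) and the other tested genes (grey) along chromosome 7, by distance in Mb from the middle of *Trim30a*, MEFs above and liver below. *Trim30a* and *Trim30d* are above 0 in both tissues, *Trim6* changes side between them, and *Trim12a*, with 0 counts in RepB-/- livers, is not drawn.

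Trim genes of the locus that are not members gave further contrasts. *Trim6*, which neighbours *Trim34a*, had 11, 15 and 11 reads in RepB-/- MEFs and 32, 18 and 34 in WT. In liver it had 142, 224 and 203 reads in RepB-/- against 38, 71 and 94 in WT, and the libraries were separate in both tissues but in opposite directions. *Trim34b* had 45, 108 and 63 reads against 82, 194 and 196 in liver, with overlap in CPM but not in TPM (0.853, 1.87 and 1.17 against 1.99, 4.57 and 3.86). *Trim5* overlapped in CPM in both tissues. *Trim3* overlapped too, with log2 fold changes of 0.04 ± 0.08 SE in MEFs and 0.03 ± 0.19 in liver, and *Trim66* had 0.29 ± 0.28 in MEFs and too few reads to be tested in liver. The pseudogene *Trim30e-ps1* is listed in liver at 0.

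The genes whose levels ran most like those of *Trim30a* within both tissues, among 11978 genes tested in both, were *Laptm4a* (Pearson's r of log2 CPM 0.969 over 6 MEF libraries and 0.967 over 6 livers), *Fech* (0.939 and 0.948) and the X-linked *Cdk16* (0.977 and 0.925). For *Trim30d* they were *Ftsj1* (0.974 and 0.930), *Pqbp1* (0.916 and 0.901) and *Igbp1* (0.893 and 0.943), all X-linked. These correlations describe libraries that share the genotype difference by which the Trim genes were chosen, and they were picked as the highest of many.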

How the data were processed

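RNA-seq of 3 RepB-/- and 3 WT libraries each of MEFs and liver was analysed, with genotypes read from the letters B and W of the sample titles. Per the paper's methods, Cutadapt was used for trimming and Hisat2 for alignment, whereas the submitters' processing notes list Trim Galore 0.4.1, STAR 2.7.0 and HTSeq 0.12.4. Which of these made each table, and the strand setting of counting, are not given in the sources used here. The deposited values were whole-number counts per gene without normalization. The deposited FPKM values of MEFs and the deposited TPM values of liver, which the authors scaled for gene length and library size, were used for levels between genes. Another 6 per-library columns of the liver table were not used.

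Counts of each tissue were fitted separately in edgeR 4.0.16 (R 4.3.3) with TMM normalization, filterByExpr and the quasi-likelihood test, over 13306 genes in MEFs and 16080 in liver, and called at a Benjamini-Hochberg adjusted p under 0.05. The scripts were tested on simulated data. DESeq2 1.42.0, its size factors in edgeR, no filter on low counts, the replicate number as a block, a term for replicate 1 and leaving out each library were alternatives. Leaving out replicate 1 of both liver genotypes, or RepB-/- liver replicate 2, from the count of separate members was added after the data were seen.

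Members and lists were chosen with earlier results of these data known. All members were named. From each list, the 3 called genes that rose and the 3 that fell most were named, or with none called the 2 with the lowest p, together with *Tab2*, *Tab3*, *Sting1*, *Irf3* and the other Trim genes of the locus. *Ifit1* and *Ifit2* were named after their values were seen. For likeness to *Trim30a* and *Trim30d*, the 3 genes with the highest smaller correlation of both tissues were named. Coding sequences and shared stretches came from GENCODE M21, whose coordinates equal those of the liver table for all 9 members, and promoters from RefSeq (GRCm38.p6). Proteins were not analysed here. A floor of 3 counts per library was used for genes not counted in a genotype.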

Additional observations from a re-analysis of the deposited data

Results flagged for a closer look

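*Trim6*, which lies beside *Trim34a* in the locus, differed between genotypes in opposite directions in the 2 tissues. Its mean level in RepB-/- was 0.332 times that in WT in MEFs, where every RepB-/- library was lower, and 2.82 times that in WT in liver, where every RepB-/- library was higher. In MEFs the difference passed edgeR's test (adjusted p = 8.38e-03), on 11 to 34 reads a library. In liver it did not (adjusted p = 1.0), and the difference between the tissues was not tested. *Trim6* shares no stretch of 100 bases with the transcripts of other genes.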

How the results depend on the processing

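Calls in MEFs rested on a tight spread and those in liver on a wide one. Over 10 alternatives, the counts of called interferon-stimulated genes (5 to 8), signalling genes (12 to 15) and other Trim genes (13 to 21) in MEFs stayed within 1.5 times the counts given above. Called neighbours of the locus numbered 19 without a filter on low counts and 14 with DESeq2, against 8. Both test 114 genes of the stretch in place of 23, and DESeq2 also changes the test, so the cause of its count was not tested. In liver, genes called over the whole table numbered 0 without the filter, 80 with DESeq2 and 0 to 4 when 1 library was left out, against 6, and the cause was not tested. No gene of the 4 lists was called in liver under any of the 11 alternatives.

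In liver every same-numbered pair correlated above 0.1, but replicates 2 and 3 correlated across numbers as well, so that the numbers separate replicate 1 from the others. With the replicate number as a block 8 genes were called in liver, against 6, and the biological coefficient of variation was 33.7%, against 51.2%. In MEFs same-numbered libraries did not deviate together (r = -0.011, -0.042 and -0.0035), so they share only a number, and the block gave 6 called interferon-stimulated genes, against 7. The block changed no direction of a member. For *Trim30a* and *Trim30d* in liver the log2 fold changes with it were 0.64 and 2.43.

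Of 57 values for the members in MEFs, 1 turned: *Trim68* lay between -0.21 and 0.065 when 1 library was left out, with the positive value without RepB-/- replicate 2. *Trim30a* lay between 2.33 and 2.86 and *Trim30d* between 1.60 and 2.67. Of 99 values in liver, 0 turned. *Trim30a* lay between 0.45 and 0.76, *Trim30d* between 1.90 and 2.89, and *Trim30b* reached 4.03 without WT replicate 1. Of the 9 members, 5 were separate between genotypes without RepB-/- liver replicate 2 and 8 without replicate 1 of both genotypes, against 5. Depth limits *Trim12a*, *Trim30b* and *Trim30c* in MEFs, which were counted at most 8 times in any library.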
